A study of Mus musculus with 18 samples.

Results

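The cartilage matrix genes described here are 10 genes that encode the main structural proteins of hyaline cartilage: Col2a1, Col9a1, Col9a2, Col9a3, Col11a1, Col11a2, Acan, Hapln1, Matn1 and Matn4. They were picked by gene symbol out of 34244 named genes measured by RNA-seq in whole mouse embryos at E11.5, the stage at which limb and axial mesenchyme condenses and the first cartilage forms. The choice was made with the values of all 9 embryos known, so the levels and fold changes of the 10 genes are given as a description. How many of them pass the thresholds of the test is counted as part of that description, and p-values are printed only for other genes.

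Cartilage is laid down by chondrocytes, which surround themselves with a network of collagen fibrils that holds a gel of proteoglycan. Collagen II, the product of Col2a1, forms the bulk of the fibril. Collagen XI sits within the fibril and collagen IX decorates its surface, while aggrecan (Acan) is anchored to hyaluronan by link protein (Hapln1) and matrilins bridge fibrils and proteoglycans. The transcription factor Sox9, acting with Sox5 and Sox6, is the known activator of these genes in chondrocytes.

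The study compared 3 genotypes of Dnmt3b, a DNA methyltransferase that places methyl groups on cytosines in CpG dinucleotides. All embryos were of the FVB strain, and each gave 1 library from total RNA, with 3 embryos of Dnmt3b+/+ (wild type), 3 of Dnmt3b-/- (a conventional knockout allele made from mice with a loxP-flanked Dnmt3b) and 3 of Dnmt3bCI/CI. The CI allele is a knock-in made with CRISPR/Cas9 in FVB zygotes that changes a pair of adjacent amino acids in the catalytic site, so that a catalytically inactive protein is made from the endogenous locus. Both alleles are present in every cell of the embryo. Embryos came from matings of heterozygous Dnmt3b+/- or Dnmt3b+/CI mice, and it is not given which matings supplied the Dnmt3b+/+ embryos, so effects of litter and genotype cannot be told apart.

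Values are FPKM, the fragments per kilobase of exon scaled to the reads of the library, so that levels of different genes can be compared. The totals behind the values lay between 38451730 and 49808778 reads per embryo. The targeted gene itself, Dnmt3b, stood at 2.25, 1.62 and 2.04 FPKM in Dnmt3b+/+ embryos 1 to 3, at 2.45, 3.12 and 3.33 FPKM for the label Dnmt3b-/-, and at 2.06, 1.98 and 2.32 FPKM in Dnmt3bCI/CI embryos. Its level for that label was thus not lower than in Dnmt3b+/+ (log2 fold change 0.57, SE 0.15, adjusted p = 0.0248 with limma). The value sums exons inside and outside the deleted part, and an antisense gene, Dnmt3bos, is annotated over it, so it does not check the labels, and these embryos are named by their label throughout.

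Embryos labelled Dnmt3b-/- had a lower mean level of all 10 genes than Dnmt3b+/+ embryos (n = 3 each), but by very unequal amounts. The matrilin genes Matn1 and Matn4 stood 24.2 and 19.5 times lower and Acan 11.4 times lower, whereas Col2a1, Col9a1 and Hapln1 stood 1.7, 1.73 and 1.8 times lower. Without embryo 1 labelled Dnmt3b-/-, the ratios of means became 34.9 for Matn1, 34.2 for Matn4, 24.1 for Acan and 7.94 for Col9a3, which stood 5.25 times lower with all 3 embryos. In Dnmt3bCI/CI embryos all 10 means were slightly above those of Dnmt3b+/+, by 1.08 to 1.34 times. In whole embryos, fewer cells of a type and less RNA per cell cannot be told apart.

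RefSeq promoter sequences of GRCm38.p6, 250 bases before to 50 bases after a start, were matched for 8 of the 10 genes, which have 10 windows in all. Col2a1 and Col9a3 were not matched. Shown here are the 250 bases before the start, on the strand of the gene, for the matched gene that stood farthest below Dnmt3b+/+ by its mean (Matn1), the matched gene that stood least below it (Col9a1), and the one with the most CpGs (Acan). Capitals mark CpG dinucleotides, the substrate of Dnmt3b.
Matn1, chr4:130944135-130944384, plus strand: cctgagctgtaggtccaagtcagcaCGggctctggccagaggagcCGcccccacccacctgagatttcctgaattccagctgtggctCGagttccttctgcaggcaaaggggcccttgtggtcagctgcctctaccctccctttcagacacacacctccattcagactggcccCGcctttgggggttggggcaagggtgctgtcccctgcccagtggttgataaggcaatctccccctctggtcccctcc
Col9a1, chr1:24177360-24177609, plus strand: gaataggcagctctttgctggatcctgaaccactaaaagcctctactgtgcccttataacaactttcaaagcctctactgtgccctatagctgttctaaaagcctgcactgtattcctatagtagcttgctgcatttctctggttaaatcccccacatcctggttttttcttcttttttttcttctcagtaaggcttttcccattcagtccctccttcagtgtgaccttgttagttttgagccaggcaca
Acan, chr7:79052976-79053225, plus strand: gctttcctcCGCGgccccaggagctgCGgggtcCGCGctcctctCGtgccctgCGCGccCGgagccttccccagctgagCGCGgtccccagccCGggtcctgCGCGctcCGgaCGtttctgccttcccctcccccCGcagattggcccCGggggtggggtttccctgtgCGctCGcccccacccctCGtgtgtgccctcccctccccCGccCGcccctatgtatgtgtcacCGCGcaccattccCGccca
None of these 3 stretches overlaps an annotated exon of GENCODE M21.

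The Acan stretch holds 26 CpGs, the Matn1 stretch 4 and the Col9a1 stretch 0. Over the whole 300-base window the number was 31 for Acan, 6 for Matn1 and 0 for Col9a1, against a median of 7 (quartiles 3 and 20) over 32851 windows of 27025 genes. Col11a2 had 16, Col9a2 had 10, Col11a1 had 9 and Hapln1 had 3, and the other windows were 2 of Matn4, with 9 and 19, and a second one of Col9a1, with 1. Before the start, the windows of Col9a2 and Hapln1 and the second one of Col9a1 overlap annotated exons of the same gene. Both Matn4 windows overlap exons of Rbpjl there. Acan and Matn1, with 31 and 6 CpGs, stood 11.4 and 24.2 times lower by the ratio of means. Matn4 stood 19.5 times lower, Col11a2 3.99, Col9a2 3.49, Col11a1 2.11, Hapln1 1.8 and Col9a1 1.73 times lower. A relation between CpG number and change was not tested.

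Neither AACAAT nor ACAAAG, core letters that Sox proteins bind, was found on either strand in any of the 10 windows. Over all windows the shares that hold them were 10.7% and 18.7%. TATAAA was found in 1 window, that of Col11a2, and in 13.6% of all windows. The lack of a match says only that these letters are not in these windows.

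In Dnmt3b+/+ embryos Col2a1 was the most abundant of the 10 genes, with a mean of 117 ± 26.3 FPKM (SD, n = 3), a level above that of 99.4% of the 19397 genes tested. Col9a2 followed with 29.8 ± 5.01 FPKM, Col9a3 with 23.8 ± 5.13, Col9a1 with 14.9 ± 2.91, Matn4 with 12.2 ± 2.03, Col11a1 with 9.94 ± 1.85 and Col11a2 with 9.77 ± 2.58. Matn1, Acan and Hapln1 were the least abundant, with 3.76 ± 1.14, 3.39 ± 1.04 and 2.78 ± 0.57 FPKM. All 10 genes were thus detected with at least 221 reads in each wild-type embryo. The samples are whole embryos, so these reads do not show which tissue they came from.

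Not every step in this order was larger than the spread between embryos. Between neighbours the values of the 3 Dnmt3b+/+ embryos were separate only from Col2a1 to Col9a2, from Col9a3 to Col9a1 and from Col11a2 to Matn1. In Dnmt3bCI/CI embryos the order of the 10 genes was the same, and only Col11a1 and Col11a2 overlapped among neighbours. In embryos labelled Dnmt3b-/- the order was Col2a1, Col9a1, Col9a2, Col11a1, Col9a3, Col11a2, Hapln1, Matn4, Acan and Matn1, and only the step from Col2a1 to Col9a1 was free of overlap. Matn4 moved from rank 5 in Dnmt3b+/+ to rank 8, while Hapln1 moved from rank 10 to rank 7.

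**Figure D1:**
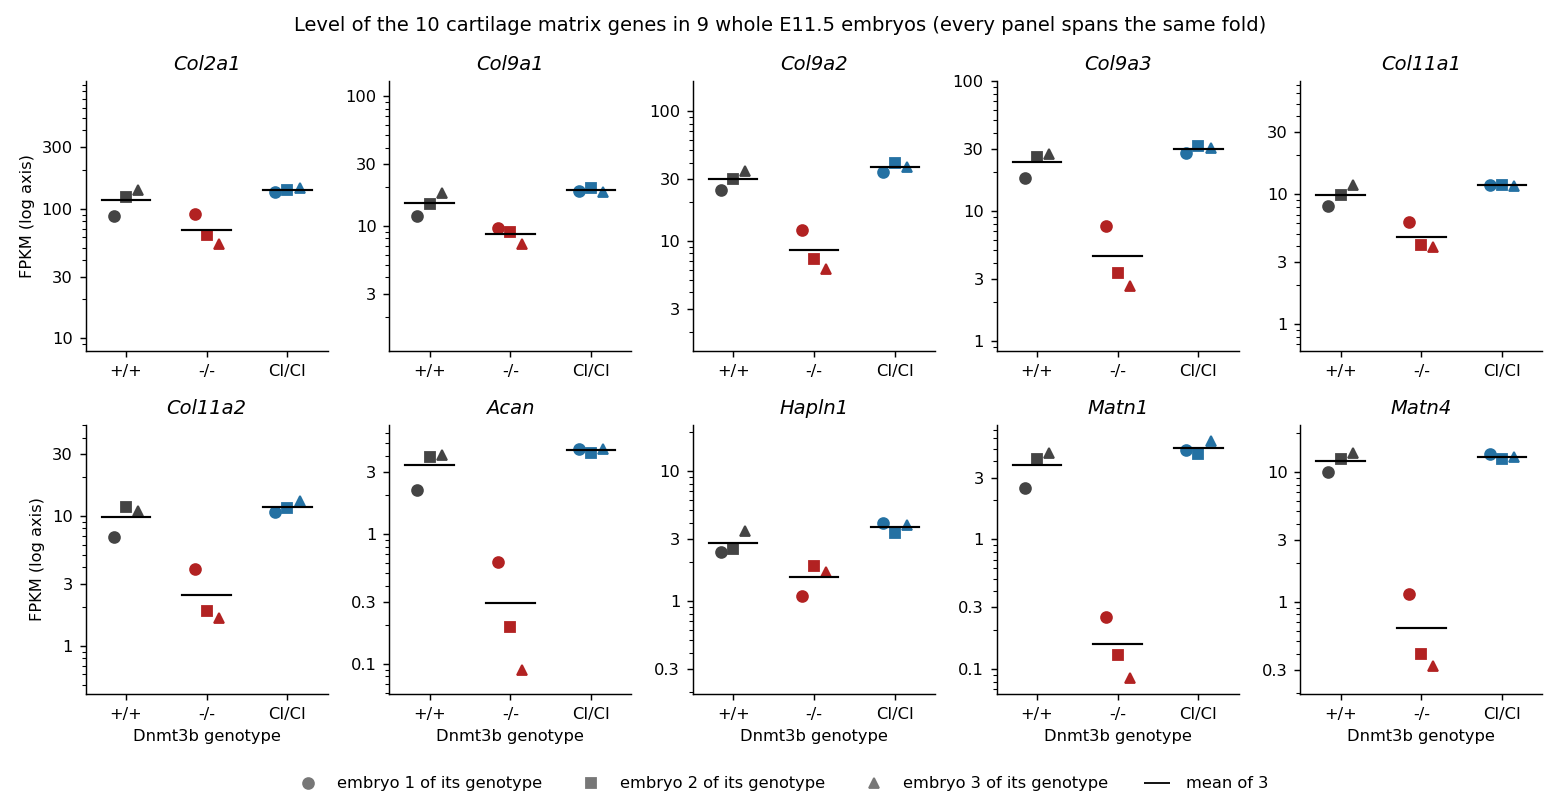
Level of each gene in FPKM (log axis, each panel spanning the same fold) in every embryo by Dnmt3b genotype, with a black line at the mean of the 3 embryos. The embryos labelled Dnmt3b-/- lie below both other genotypes in every panel except that of Col2a1, where embryo 1 of that label (90.6 FPKM) lies above Dnmt3b+/+ embryo 1 (88.4 FPKM).

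Col2a1 (chr15:97975602-98004695, minus strand, GRCm38), the gene of the fibril-forming collagen II, had 88.4, 122.2 and 140.3 FPKM in Dnmt3b+/+ embryos 1 to 3. It had 90.6, 62.5 and 53.2 FPKM in embryos labelled Dnmt3b-/-, and 134.5, 138.2 and 144.6 FPKM in Dnmt3bCI/CI embryos. Embryo 1 of the first 2 groups had nearly the same value, so those groups overlapped. The log2 fold change relative to Dnmt3b+/+ was -0.78 (SE 0.21) in the embryos labelled Dnmt3b-/- and 0.27 (SE 0.21) in Dnmt3bCI/CI. Col2a1 is also known to be expressed outside cartilage in the embryo, in the notochord, the otic epithelium and other epithelia.

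The 3 chains of collagen IX, which assemble as a trimer with 1 product of each gene, did not move by the same amount. Col9a1 (chr1:24177610-24252684, plus strand) had 12, 14.8 and 17.9 FPKM in Dnmt3b+/+, 9.60, 9.0 and 7.22 FPKM in embryos labelled Dnmt3b-/-, and 18.4, 19.6 and 18.2 FPKM in Dnmt3bCI/CI. Col9a2 (chr4:121039385-121055322, plus strand) had 24.7, 29.9 and 34.7 FPKM, then 12.2, 7.30 and 6.05 FPKM, then 33.7, 39.8 and 37.0 FPKM in the same order. Col9a3 (chr2:180597790-180622189, plus strand) had 18.0, 26.1 and 27.5 FPKM, then 7.63, 3.35 and 2.66 FPKM, then 27.9, 31.6 and 30.9 FPKM.

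The embryos labelled Dnmt3b-/- were below all Dnmt3b+/+ embryos for each of the 3 chains. Their log2 fold changes were -0.78 (SE 0.15) for Col9a1, -1.84 (SE 0.23) for Col9a2 and -2.49 (SE 0.34) for Col9a3. Tcfl5 is annotated on the opposite strand over part of Col9a3, and the strandedness of the counting is not stated, so some reads of Col9a3 could belong to Tcfl5.

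Within single embryos the balance of the chains was steady in Dnmt3b+/+ and Dnmt3bCI/CI. The ratio of Col9a2 to Col9a1 was 2.05, 2.02 and 1.94 in Dnmt3b+/+ embryos 1 to 3 and 1.84, 2.04 and 2.04 in Dnmt3bCI/CI. It was 1.27, 0.812 and 0.837 in the embryos labelled Dnmt3b-/-, with no overlap. The ratio of Col9a3 to Col9a1 was 1.49, 1.76 and 1.54 in Dnmt3b+/+, 1.52, 1.61 and 1.70 in Dnmt3bCI/CI, and 0.794, 0.372 and 0.369 in the embryos labelled Dnmt3b-/-. Col9a1 itself stood in overlapping proportions to Col2a1, with mean ratios of 0.128 ± 0.00753 in Dnmt3b+/+, 0.129 ± 0.02 in embryos labelled Dnmt3b-/- and 0.135 ± 0.00812 in Dnmt3bCI/CI (SD, n = 3).

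Collagen XI is built from the products of Col11a1 and Col11a2 and a chain encoded by Col2a1. Col11a1 (chr3:114030540-114220718, plus strand) had 8.12, 9.87 and 11.8 FPKM in Dnmt3b+/+, 6.14, 4.06 and 3.91 FPKM in embryos labelled Dnmt3b-/-, and 11.9, 11.8 and 11.6 FPKM in Dnmt3bCI/CI. Col11a2 (chr17:34039437-34066685, plus strand) had 6.82, 11.6 and 10.9 FPKM, then 3.87, 1.86 and 1.63 FPKM, then 10.6, 11.4 and 13.0 FPKM. Neither gene overlapped between the embryos labelled Dnmt3b-/- and either other genotype.

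The log2 fold change relative to Dnmt3b+/+ was -1.08 (SE 0.18) for Col11a1 and -2.02 (SE 0.31) for Col11a2. The ratio of Col11a2 to Col11a1 was 0.841, 1.18 and 0.918 in Dnmt3b+/+, 0.892, 0.969 and 1.11 in Dnmt3bCI/CI, and 0.629, 0.458 and 0.417 in the embryos labelled Dnmt3b-/-. As with collagen IX, the chain that was lower by more in these embryos left the ratio about 1.95 times lower on average. The ratio of Col11a1 to Col2a1 moved far less, from a mean of 0.0856 ± 0.00562 in Dnmt3b+/+ to 0.0687 ± 0.00429, again without overlap.

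**Figure D2:**
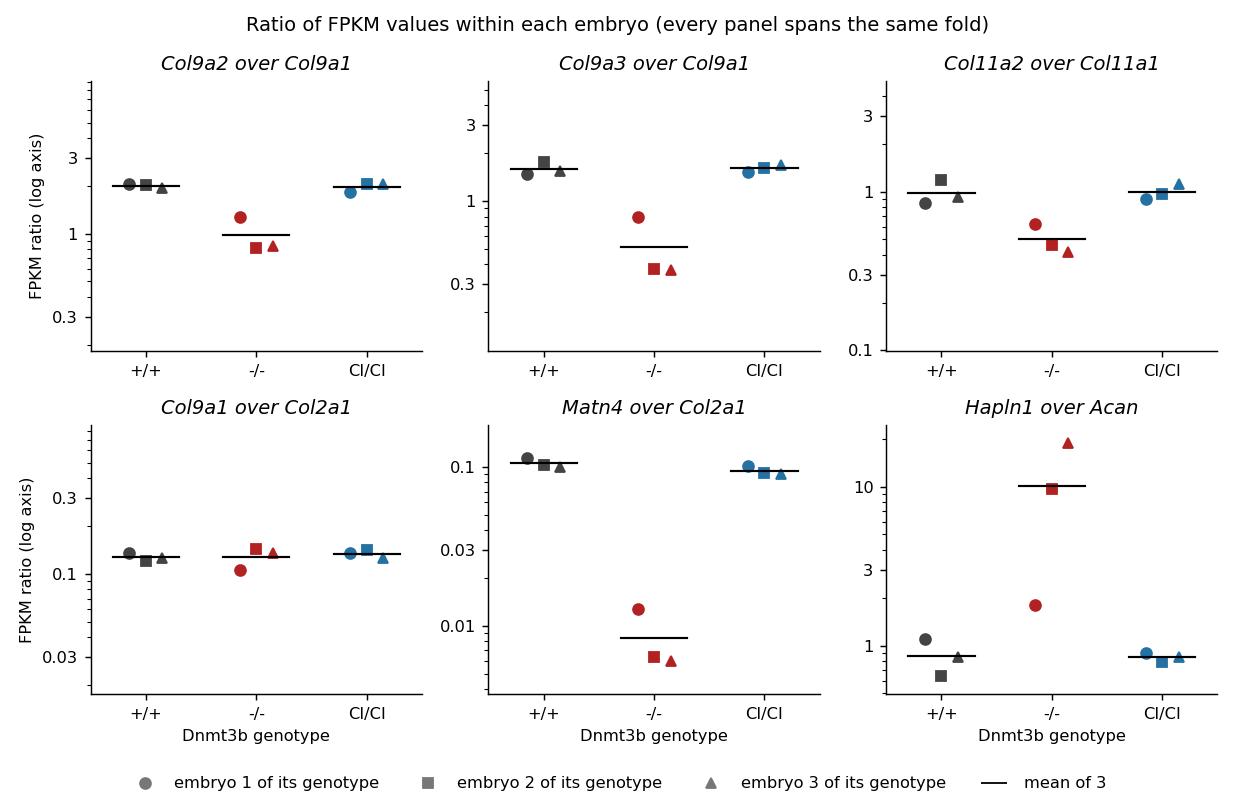
Ratio of the FPKM values of 2 genes within each embryo (log axis, each panel spanning the same fold) by Dnmt3b genotype, with a black line at the mean of the 3 embryos. Col9a1 over Col2a1 stays near 0.13 in all 3 genotypes, while the other 5 ratios of the embryos labelled Dnmt3b-/- lie apart from those of both other genotypes.

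Aggrecan and link protein, which form aggregates with hyaluronan, were the least alike of the functional pairs. Acan (chr7:79053483-79115099, plus strand) had 2.18, 3.90 and 4.07 FPKM in Dnmt3b+/+ and 4.51, 4.23 and 4.54 FPKM in Dnmt3bCI/CI. In the embryos labelled Dnmt3b-/- it had 0.608, 0.192 and 0.0892 FPKM, which rest on 181, 61 and 27 reads. The exact 95% Poisson interval of the lowest of these, which covers counting error only, is 0.0588 to 0.13 FPKM.

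Hapln1 (chr13:89539796-89611652, plus strand) had 2.39, 2.52 and 3.44 FPKM in Dnmt3b+/+, 1.09, 1.87 and 1.67 FPKM in embryos labelled Dnmt3b-/-, and 4.02, 3.32 and 3.86 FPKM in Dnmt3bCI/CI. It was the only one of the 10 genes whose lowest value among the embryos labelled Dnmt3b-/- was that of embryo 1. The log2 fold changes relative to Dnmt3b+/+ were -3.31 (SE 0.43) for Acan and -0.83 (SE 0.20) for Hapln1. The ratio of Hapln1 to Acan was accordingly 1.10, 0.647 and 0.845 in Dnmt3b+/+ and 1.80, 9.73 and 18.7 in the embryos labelled Dnmt3b-/-. A processed pseudogene, Gm8546, is annotated on the opposite strand within Hapln1, and Hapln1 is also known from heart cushions.

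The matrilin genes showed the lowest levels relative to Dnmt3b+/+. Matn1 (chr4:130944385-130955475, plus strand), which encodes a matrix adaptor protein restricted largely to cartilage, rested on 221, 415 and 365 reads in Dnmt3b+/+ and 440, 397 and 438 reads in Dnmt3bCI/CI. The embryos labelled Dnmt3b-/- had 20, 11 and 7 reads, or 0.251, 0.129 and 0.0863 FPKM, and the interval of the last value is 0.0347 to 0.178 FPKM. Matn4 (chr2:164389393-164405160, minus strand), a matrilin of cartilage and other connective tissues, rested on 2321, 3234 and 2857 reads in Dnmt3b+/+, on 240, 87 and 67 reads in embryos labelled Dnmt3b-/-, and on 3182, 2831 and 2612 reads in Dnmt3bCI/CI. In FPKM these were 10, 12.5 and 14.1, then 1.16, 0.396 and 0.319, then 13.7, 12.6 and 13.1, with a gap of more than 8 times between the lowest Dnmt3b+/+ embryo and the highest embryo labelled Dnmt3b-/-. Rbpjl overlaps Matn4 on the opposite strand, so the reads that remained could include reads of Rbpjl.

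Neither matrilin gene was at 0 reads in any embryo. The log2 fold change relative to Dnmt3b+/+ was -3.92 (SE 0.28) for Matn1 and -4.25 (SE 0.36) for Matn4. These values were computed with 0.1 FPKM added, which understates the change of low genes. With 0.01 FPKM added the value of Matn1 was -4.58, and with 1 FPKM added the values were -2.02 for Matn1, -3.05 for Matn4 and -1.75 for Acan. The ratio of Matn1 to Matn4 was 0.303 ± 0.049 in Dnmt3b+/+ and 0.271 ± 0.0557 in the embryos labelled Dnmt3b-/- (SD, n = 3), with overlap, so both matrilins were lower in about the same proportion.

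The make-up of the 10 transcripts as a set therefore shifted. Summed over the 10 genes the level was 175.2, 237.7 and 269.3 FPKM in Dnmt3b+/+, 133.2, 90.6 and 76.8 FPKM in embryos labelled Dnmt3b-/-, and 264.1, 277.1 and 282.5 FPKM in Dnmt3bCI/CI. Col2a1 made up 50.5%, 51.4% and 52.1% of that sum in Dnmt3b+/+ and 50.9%, 49.9% and 51.2% in Dnmt3bCI/CI, but 68.0%, 68.9% and 69.2% in the embryos labelled Dnmt3b-/-. The matrilins made up 6.96% to 7.15% in Dnmt3b+/+ and 0.528% to 1.06% in the embryos labelled Dnmt3b-/-, and the chains of collagen IX 29.7% to 31.2% and 20.7% to 22.1%. The share of Col2a1 was thus nearly constant among embryos of that label although their summed levels differed.

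**Figure D3:**
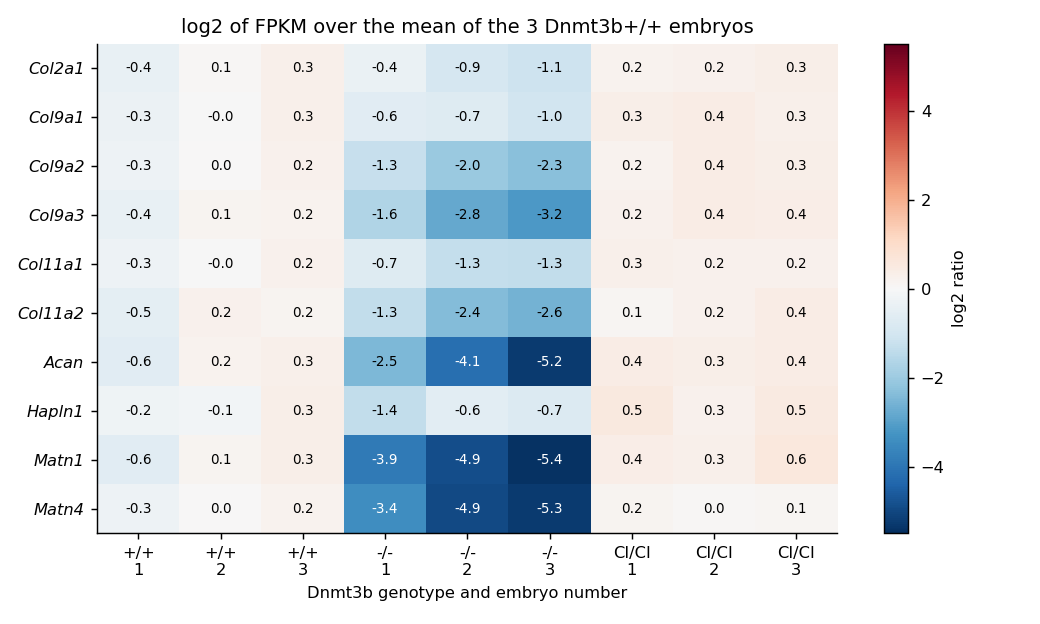
Colour map of the log2 ratio of each gene's FPKM in each embryo (columns) to the mean of the 3 Dnmt3b+/+ embryos, with the log2 ratio printed in each cell. The darkest cells are those of Acan, Matn1 and Matn4 in embryos 2 and 3 labelled Dnmt3b-/-, and Dnmt3b+/+ embryo 1 is below the mean of its group for all 10 genes.

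Embryos of the same genotype differed along the whole set of genes. Dnmt3b+/+ embryo 1 was the lowest of its 3 for 10 of 10 genes, at 0.548 (Acan) to 0.802 (Hapln1) of the mean of the other 2, whereas it was the lowest for 34.5% of all tested genes. Among the embryos labelled Dnmt3b-/-, embryo 1 was the highest for 9 of 10 genes and for 47.6% of all tested genes. It had 4.32 times the mean of the other 2 embryos for Acan, 3.25 times for Matn4, 2.54 times for Col9a3 and 1.18 times for Col9a1, but 0.617 times for Hapln1. Embryo 3 was the lowest for 9 of 10 genes, against 41.5% of all tested genes.

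The spread between embryos was widest for the embryos labelled Dnmt3b-/-, with coefficients of variation from 14.4% (Col9a1) to 92.6% (Acan) and a median of 44.2%. The median was 21.0% in Dnmt3b+/+ and 5.29% in Dnmt3bCI/CI, where Col11a1 had 1.24%. No Dnmt3bCI/CI embryo was the highest or the lowest of its group for more than 4 of the 10 genes.

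In the limma model of all 9 embryos a gene was called when its adjusted p was below 0.05 and its level differed by a factor of 2 or more. By these thresholds 7 of the 10 genes were called lower for the label Dnmt3b-/- relative to Dnmt3b+/+, where 3.38% of all tested genes were (655 lower and 208 higher, or 392 and 272 after quantile normalization). Since the genes were chosen with these values known, the count is a description. Col2a1, Col9a1 and Hapln1 were below the fold threshold, and Col11a1 lay just beyond it, at -1.08, and fell short with 1 FPKM added and when Dnmt3b+/+ embryo 3 or embryo 2 or 3 of those labelled Dnmt3b-/- was left out. The values of 9 of 10 genes did not overlap between the groups, against 23.8% of all tested genes that were lower without overlap. The median log2 fold change was -1.93, beside -0.0695 for all tested genes.

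Relative to Dnmt3bCI/CI, 10 of 10 genes were called lower for that label, beside 4.32% of all tested genes called lower and 5.42% called in either direction. The groups did not overlap for 10 of 10, as for 29.5% of all tested genes that were lower, and the median log2 fold change was -2.23 beside -0.0783 for all tested genes. Without embryo 3 of that label, Col2a1 and Col9a1 fell short of a fold change of 2 and 8 of 10 passed. The same embryos labelled Dnmt3b-/- enter both contrasts, so these counts are not independent of each other.

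Between Dnmt3bCI/CI and Dnmt3b+/+, 0 of 10 genes were called with limma, beside 0.129% of all tested genes, and 1 of 10 had an unadjusted p under 0.05, beside 5.25%. Lower by the adjusted p alone were 0 of 10, beside 0.0155%. The log2 fold changes were 0.12 (Matn4) to 0.46 (Matn1), with a median of 0.33 beside 0.0182 for all tested genes, and SEs of 0.15 to 0.43. Col9a1, Col9a3 and Acan were higher in all 3 Dnmt3bCI/CI embryos than in any Dnmt3b+/+ embryo, as were 7.53% of all tested genes, and 0 of 10 genes were lower without overlap, as were 5.65%. Without Dnmt3b+/+ embryo 1 the values were -0.02 (Matn4) to 0.33 (Hapln1), with 0.15 for Acan, 0.19 for Matn1 and 0.09 for Col2a1.

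**Figure D4:**
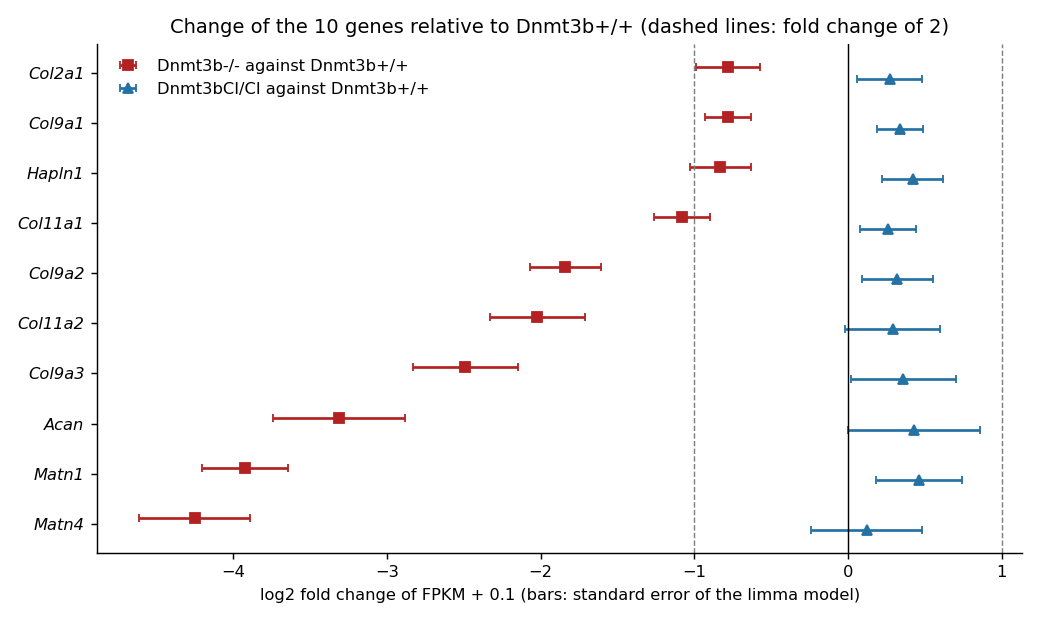
The log2 fold change of each gene relative to Dnmt3b+/+ (horizontal axis, log2 of FPKM + 0.1) in the embryos labelled Dnmt3b-/- (red squares) and in Dnmt3bCI/CI embryos (blue triangles), with bars of 1 standard error. The values run from -0.78 (Col2a1 and Col9a1) to -4.25 (Matn4) in the embryos labelled Dnmt3b-/- and from 0.12 to 0.46 in Dnmt3bCI/CI.

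Other genes of the cartilage matrix were lower as well. Of 22 further matrix and matrix-associated genes, 17 were called lower and 0 higher in the embryos labelled Dnmt3b-/- relative to Dnmt3b+/+, beside 4.45% of all tested genes called in either direction, and the median log2 fold change was -1.47. Susd5, which encodes a hyaluronan-binding protein, had 2.00, 2.79 and 3.49 FPKM in Dnmt3b+/+ and 0.381, 0.138 and 0.0483 FPKM in embryos labelled Dnmt3b-/- (log2 fold change -3.44, SE 0.38, adjusted p = 0.000924). Cnmd, the gene of the antiangiogenic cartilage protein chondromodulin, had 3.11, 5.61 and 5.81 FPKM and then 1.02, 0.893 and 0.616 FPKM (-2.36, SE 0.26, adjusted p = 0.00101). Mia, which encodes a small secreted protein of chondrocytes, fell by 2.34 on the log2 scale (adjusted p = 0.00102), and Cytl1, a cytokine-like gene of chondrocytes, by 2.31 (adjusted p = 0.000429).

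Comp, the cartilage oligomeric matrix protein gene, fell by 2.10 (adjusted p = 0.00359), to values of 0.0423, 0.0476 and 0.0748 FPKM in embryos labelled Dnmt3b-/-. Prelp and Chad, leucine-rich repeat proteins of the matrix, fell by 1.91 and 1.64 (adjusted p = 0.00231 and 0.00325). Col16a1, a fibril-associated collagen, fell by 1.60 with the smallest SE of these 8, 0.09 (adjusted p = 4.48e-05). The 5 genes that were not called were Matn3, Ucma, Hapln3, Prg4 and Col22a1, named because they complete the list, with log2 fold changes from -0.62 to 0.09. Many of these genes are low, and with 1 FPKM added before taking logs 6 of the 22 were called. The calls of Comp, Prelp and Chad were among those lost, and that of Comp was also lost with a filter of 1 FPKM. Relative to Dnmt3b+/+, 0 of 22 were called in Dnmt3bCI/CI with limma, where 2 had an unadjusted p under 0.05.

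Among 24 transcription regulators of chondrogenesis the differences were smaller. Sox9 had 25.1, 26.4 and 28.9 FPKM in Dnmt3b+/+, 24.1, 22.0 and 18.6 FPKM in embryos labelled Dnmt3b-/-, and 25, 26.1 and 27.0 FPKM in Dnmt3bCI/CI. Its log2 fold change in the embryos labelled Dnmt3b-/- was -0.32 (SE 0.10, adjusted p = 0.042), below the fold threshold. Sox5, with 1.72, 1.28 and 1.49 FPKM against 0.846, 0.913 and 1.17 FPKM, had -0.57 (SE 0.14, adjusted p = 0.0214), and Sox6, with 2.91, 2.16 and 2.37 FPKM against 1.57, 1.2 and 1.60 FPKM, had -0.73 (SE 0.14, adjusted p = 0.00953).

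Runx3, a Runt-domain factor of chondrocyte maturation, was the 1 gene of the 24 called lower (log2 fold change -1.43, SE 0.38, adjusted p = 0.028), and 0 were called higher. This share, 4.17%, is close to the 4.45% of all tested genes called in either direction. Its 3 values in the embryos labelled Dnmt3b-/- were 0.787, 0.244 and 0.177 FPKM, and the call was lost when any embryo of the contrast other than embryo 1 of that label was left out. Without that embryo 5 regulators were called, Runx3 together with Pax1, Nkx3-2, Barx2 and Wwp2. By the adjusted p alone 10 of the 24 were lower and 1 was higher, beside 16.4% and 9.41% of all tested genes, and the median log2 fold change of the list was -0.35, beside -1.47 for the matrix genes above. In Dnmt3bCI/CI, 0 of 24 were called with limma and 1 had an unadjusted p under 0.05.

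Enzymes that sulfate and extend the glycosaminoglycan chains of aggrecan formed another list. Of 26 genes, 3 were called lower and 0 higher in the embryos labelled Dnmt3b-/-, beside 3.38% of all tested genes called lower. By the adjusted p alone 10 of the 26 were lower, beside 16.4% of all tested genes. Papss2, which makes the sulfate donor PAPS, had 3.27, 2.94 and 3.69 FPKM in Dnmt3b+/+ against 0.773, 0.809 and 0.651 FPKM (log2 fold change -2.01, SE 0.11, adjusted p = 2.69e-05). Csgalnact1, which starts chondroitin chains, fell by 1.63 (SE 0.19, adjusted p = 0.00126), a call that was lost with 1 FPKM added and with a filter of 1 FPKM. Chsy3, a chondroitin synthase, fell by 1.15 (SE 0.32, adjusted p = 0.0316), a call that was lost without any 1 of the Dnmt3b+/+ embryos, without embryo 2 or embryo 3 labelled Dnmt3b-/-, and with 1 FPKM added, which left 1 of the 3 calls. It was also lost without a filter, after quantile normalization and with only the 2 genotypes of the contrast.

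Of 28 genes for folding, processing and secretion of collagens, 3 were called lower, beside 3.38% of all tested genes, and 0 higher. These were Lox, the lysyl oxidase that cross-links collagen (log2 fold change -1.91, SE 0.17, adjusted p = 0.000389), and the procollagen N-proteinases Adamts2 (-1.65, SE 0.11, adjusted p = 0.000109) and Adamts14 (-1.16, SE 0.17, adjusted p = 0.00336). Both proteinase calls were lost with 1 FPKM added, which left 1 of 3, and that of Adamts14 also after quantile normalization. By the adjusted p alone 17 of the 28 were lower, beside 16.4% of all tested genes, and 0 were higher, and the median was -0.38. Of 13 tested genes of hypertrophic cartilage and bone, 4 were called lower at the thresholds that 3.38% of all tested genes passed. These were Ibsp, Ihh, Sp7 and Mef2c, and their log2 fold changes were -1.83, -1.34, -1.18 and -1.10 (adjusted p = 0.0149, 0.00748, 0.00399 and 0.00229). With 1 FPKM added, 0 of these 4 passed the fold threshold, and Ibsp was lost without embryo 2 labelled Dnmt3b-/-. Sp7 and Mef2c were lost after quantile normalization, and Ibsp and Ihh with a filter of 1 FPKM.

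**Figure D5:**
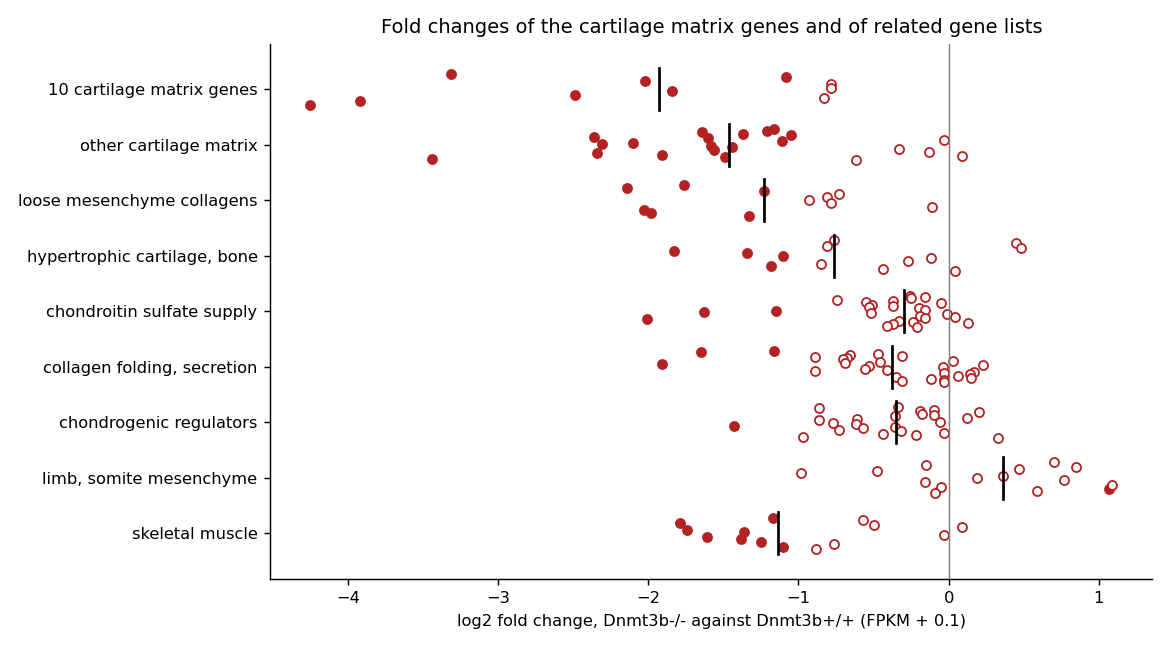
The log2 fold change in embryos labelled Dnmt3b-/- relative to Dnmt3b+/+ (horizontal axis, log2 of FPKM + 0.1) for each tested gene of the named lists (rows), with filled points for genes past an adjusted p of 0.05 and a fold change of 2 and a black line at the median. Medians lie at -1.93 for the 10 cartilage matrix genes, at -1.47 for the other cartilage matrix genes and at -0.35 for the chondrogenic regulators, while the limb and somite mesenchyme list lies at 0.36.

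Of 11 collagens of loose mesenchyme, 6 were called lower, beside 3.38% of all tested genes, and 0 higher, with a median log2 fold change of -1.23. Col14a1 fell by 2.14 (SE 0.45, adjusted p = 0.0122), Col6a1 by 2.03 (SE 0.20, adjusted p = 0.000571), Col6a2 by 1.98, Col12a1 by 1.76, Col6a3 by 1.33 and Col1a1 by 1.23 (SE 0.16, adjusted p = 0.00203). Col1a1, the main collagen of bone and skin, had 133.6, 182.0 and 173.0 FPKM in Dnmt3b+/+ and 73.6, 57.5 and 76.7 FPKM in embryos labelled Dnmt3b-/-. All 6 calls held without any single embryo and with 1 FPKM added.

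Markers of the cell types that give rise to cartilage or lie beside it are set here next to the 10 genes. Of 15 markers of limb and somite mesenchyme, 0 were called lower and 1 higher, beside 3.38% and 1.07% of all tested genes. The 1 was Tcf15, a somite factor (log2 fold change 1.07, SE 0.29, adjusted p = 0.0289), a call lost without Dnmt3b+/+ embryo 1 or 2 and without embryo 1 or 2 labelled Dnmt3b-/-. It was also lost with 1 FPKM added, without a filter and with only the 2 genotypes of the contrast. By the adjusted p alone 5 of the 15 were higher and 1 was lower, beside 9.41% and 16.4% of all tested genes. The lower one was Osr2, a transcription factor of limb mesenchyme, named here because it went against the sum. Osr2 had 6.95, 5.29 and 5.55 FPKM in Dnmt3b+/+ and 3.01, 2.96 and 2.82 FPKM for the label Dnmt3b-/- (-0.98, SE 0.15, adjusted p = 0.00317), and it was called without Dnmt3b+/+ embryo 2 or 3. Without embryo 1 labelled Dnmt3b-/- the 3 calls were Msx1, Tbx4 and Osr2. Twist1 was the most abundant of the 15, with means of 60.3 FPKM in Dnmt3b+/+ and 91.0 FPKM for the label Dnmt3b-/-, and gave the largest part of their sum. Osr1, Tbx15, Lhx9, Twist2 and Tbx5 also had lower means for that label than in Dnmt3b+/+. The summed level of all 15 was 152.5 to 178.7 FPKM in Dnmt3b+/+, 209.0 to 248.8 FPKM in embryos labelled Dnmt3b-/- and 157.1 to 174.9 FPKM in Dnmt3bCI/CI. Of 9 tested notochord and floor plate markers 2 were called, beside 4.45% of all tested genes. Chrd was called lower (-1.05, adjusted p = 0.0086) and Shh higher (1.18, adjusted p = 0.0029). Chrd was lost without Dnmt3b+/+ embryo 2, without embryo 2 or 3 labelled Dnmt3b-/- and after quantile normalization, and both were lost with 1 FPKM added. Their sum was 22.3 to 26.7, 18.7 to 22.1 and 19.6 to 21.8 FPKM in the same order, with Noto, a defining notochord gene, under 0.1 FPKM in all embryos.

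Of 14 skeletal muscle markers 8 were called lower, beside 3.38% of all tested genes, and 0 higher (3 without embryo 2 labelled Dnmt3b-/-, 9 without Dnmt3b+/+ embryo 1), led by Chrna1 (-1.79, adjusted p = 0.00366), Myh3 (-1.74, adjusted p = 0.0142) and Mylpf (-1.61, adjusted p = 0.0081). Their sum was 164.1 FPKM in Dnmt3b+/+ embryo 1, which also had the lowest cartilage sum, and 292.4 and 274.8 FPKM in the other 2. It was 109.3 to 139.8 FPKM in embryos labelled Dnmt3b-/-, and 287.2 to 344.3 FPKM in Dnmt3bCI/CI. Of 15 lens markers 8 were called lower, beside the same 3.38%, among them the crystallins Cryga (-5.38, SE 1.35, adjusted p = 0.0221) and Cryba4 (-3.72, SE 0.75, adjusted p = 0.0102). Of these calls 6, Cryga included and Cryba4 not, were lost without any 1 of the Dnmt3b+/+ embryos or without embryo 2 or 3 labelled Dnmt3b-/-, whereas 12 markers were called with only the 2 genotypes of the contrast. The sum over the list was 54.8 to 88.0 FPKM in Dnmt3b+/+ and 9.68 to 12.4 FPKM for the label Dnmt3b-/-, without overlap. In Dnmt3bCI/CI embryos 1 to 3 it was 48.4, 8.87 and 107.8 FPKM, so that embryo 2 was below all embryos labelled Dnmt3b-/-.

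Heart cushion and valve markers, counted without Hapln1, had 3 of 9 called lower, beside 3.38% of all tested genes (Postn, Nfatc1 and Bmp2, at -1.40, -1.31 and -1.03), and 2 of 9, Msx1 and Twist1, which the limb list also holds, were higher by the adjusted p alone, beside 9.41% of all tested genes. By the adjusted p alone 3 of 9 were lower, beside 16.4%. Bmp2 was lost without Dnmt3b+/+ embryo 3, without embryo 1 or 3 labelled Dnmt3b-/- and after quantile normalization, and Nfatc1 and Bmp2 with 1 FPKM added. Of 6 otic vesicle markers 0 were called with limma, 2 were lower by the adjusted p alone, beside 16.4% of all tested genes, and 3 had an unadjusted p under 0.05, as did 40% of all tested genes. Fbxo2 was called without Dnmt3b+/+ embryo 1 or without embryo 1 labelled Dnmt3b-/-, and Tecta with 0.01 FPKM added. Erythroid markers summed to 2915.1, 2793.4 and 2274.3 FPKM in Dnmt3b+/+ and to 2235.3, 6985.9 and 3959.0 FPKM for the label Dnmt3b-/-, so that embryo 1 of that label was below all Dnmt3b+/+ embryos and the other 2 above them. Of 9 erythroid markers 2 were called higher, beside 1.07% of all tested genes, the embryonic globins Hbb-bh1 (3.01, adjusted p = 0.00418) and Hba-x (1.79, adjusted p = 0.018). Hba-x was lost without Dnmt3b+/+ embryo 3, without embryo 3 labelled Dnmt3b-/- and with only the 2 genotypes of the contrast, and without embryo 1 of that label Hbb-y was called as well, which made 3. Hepatocyte markers had 1 of 12 called lower, Ttr (-2.19, adjusted p = 0.0121), beside 3.38% of all tested genes. The list had 7 called without Dnmt3b+/+ embryo 2, whose sum over the list was 38.1 FPKM against 328.4 and 183.0 FPKM in the other 2. Of 12 neuron markers 0 were called with limma and 2 had an unadjusted p under 0.05, beside 40% of all tested genes, while 3 were called without embryo 1 labelled Dnmt3b-/-. Relative to Dnmt3b+/+, Dnmt3bCI/CI embryos had 0 called genes with limma in every list. Of 28 collagen folding and secretion genes 6 had an unadjusted p under 0.05, beside 5.25% of all tested genes, and each of the other lists had 0 to 2 such genes. The part of these cell types in the levels of the 10 genes was not tested.

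The genes whose level over the 9 embryos was most like that of the 10 were ranked by Pearson's r with the mean of their standardized log2 profiles, among 12773 other genes with a mean of at least 1 FPKM. The 8 most alike were Matn2, Anxa6, Tpm2, Bicc1, Cspg4, Ppp1r13b, Islr and Adamts5, with r from 0.997 to 0.993. The 9 values fall into separate genotypes, so r here ranks genes and is not tested. Among the 10 genes themselves r with the same mean, which includes each of them, was 0.966 to 0.995 except for Hapln1, with 0.849.

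Matn2, another matrilin and the closest of all, had 1.64, 2.30 and 2.60 FPKM in Dnmt3b+/+, 0.931, 0.597 and 0.509 FPKM in embryos labelled Dnmt3b-/-, and 3.05, 2.67 and 2.74 FPKM in Dnmt3bCI/CI. Adamts5, a protease that cleaves aggrecan, had 1.37, 1.5 and 1.67 FPKM, then 0.834, 0.637 and 0.521 FPKM, then 1.76, 1.83 and 1.64 FPKM. In both, embryo 1 was the lowest of Dnmt3b+/+ and the highest of the embryos labelled Dnmt3b-/-, as for 9 of the 10 cartilage matrix genes. Anxa6, an annexin of matrix vesicles and many other cells, was the most abundant of the 8, with 40.4, 44.4 and 52.0 FPKM in Dnmt3b+/+ and 28.9, 24.4 and 21.0 FPKM in embryos labelled Dnmt3b-/-.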

How the data were processed

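RNA-seq of 9 whole E11.5 embryos was analysed, and bisulfite sequencing of the series was not used here. The authors aligned trimmed paired-end reads with STAR to mm10, kept well-mapped alignments, and deposited FPKM values per gene made with SeqMonk. The annotation release and strandedness are not given in the sources used here. One row without a gene name was left out, and a gene without reads carries a value worth 0.9 reads. Reads were worked back from FPKM, GENCODE M21 exon length and library total (within 0.02 of a whole number in all 9 embryos for 91.6% of genes). They gave the depth, the read numbers and the Poisson intervals, and did not enter the test. For Col2a1 and Col11a2 the length was found from the values.

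The test was limma 3.58.1 (R 4.3.3) on log2(FPKM + 0.1) with a variance trend, run on the 19397 genes, all 10 cartilage matrix genes among them, that reached 0.1 FPKM in 3 or more of 9 embryos. All 9 embryos entered 1 model, with Benjamini-Hochberg adjustment. The count model the authors used needs counts. The test was checked on simulated data. The 10 genes and all lists were chosen with earlier results of these data known. From each list the text names up to 8 called genes with the largest fold changes, and Sox9, Sox5 and Sox6 whatever their values. Python 3.11.15 and pandas 2.3.3 were used.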

Additional observations from a re-analysis of the deposited data

How the results depend on the processing

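Of 420 log2 fold changes of the 10 genes recomputed under alternatives, 411 moved by less than the spread between embryos, 9 moved by more and 0 of the called values changed sign. The 9 were values of Acan, Hapln1, Matn1 and Matn4 with another pseudocount. The number of the 10 genes past the thresholds in embryos labelled Dnmt3b-/- was 6 to 7 relative to Dnmt3b+/+ and 8 to 10 relative to Dnmt3bCI/CI, and it was 0 for Dnmt3bCI/CI relative to Dnmt3b+/+ under every alternative. The 17 other cartilage matrix genes called became 6 with 1 FPKM added and 11 with a filter of 1 FPKM in 3 of 9 embryos, which drops low genes, and 13 to 18 when 1 embryo was left out. The 1 chondrogenic regulator called became 0 with 1 FPKM added, without a filter, and with only the 2 genotypes of the contrast, and 0 to 5 when 1 embryo was left out. Over all genes, 655 lower and 208 higher calls relative to Dnmt3b+/+ became 133 and 60 with 1 FPKM added, 1028 and 251 with 0.01 FPKM, 388 and 96 with the stricter filter, 1174 and 253 without embryo 1 labelled Dnmt3b-/-, and 392 and 272 after quantile normalization, which shifts the share of lower calls. Without embryo 3 labelled Dnmt3b-/- they became 427 and 197. The 25 genes called higher in Dnmt3bCI/CI relative to Dnmt3b+/+ became 8 with 1 FPKM added. After quantile normalization 7, 0 and 10 of the 10 genes passed in the 3 contrasts.

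The labels do not say whether embryos with the same number in different genotypes were paired. The correlations that follow do not decide whether they shared a litter or batch. Deviations from the group means correlated at -0.34 to 0.215 over 9 same-numbered pairs, with 1 pair over 0.1, and at -0.0867 on average beside 0.0477 for other pairs. With the replicate number as a block, 7, 0 and 10 of the 10 genes passed the thresholds in the 3 contrasts, 16 other cartilage matrix genes were called and 0 regulators, the calls of Chsy3 and Tcf15 and some of the lens and muscle markers were lost, and 539 genes were lower and 199 higher overall. The causes of these shifts were not tested.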
